A study of Mus musculus with 12 samples.

Results

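The 10 genes described here encode proteins of the basement membrane that primitive endoderm lays down: the laminin chains Lama1, Lama5, Lamb1 and Lamc1, the collagen IV chains Col4a1 and Col4a2, the nidogens Nid1 and Nid2, the perlecan gene Hspg2, and Sparc. They were chosen by name, as 10 of the 21883 protein-coding genes in the annotation, and their Mediator regions were found by position. For each protein the peaks of its 4 libraries were merged wherever they overlapped by at least 1 bp, and a region belonged to a gene when that gene's span was the nearest within 100 kb (mm10 coordinates). This gave 86 of 65291 regions for MED1 and 88 of 66123 regions for MED24, 2 subunits of Mediator, the complex that links transcription factors to RNA polymerase II. The nearest gene is not shown to be the gene a region regulates, and peak lists carry no measure of expression.

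The 2 h group consisted of the mouse embryonic stem cell line E14tg2a, of 129SV background, stably carrying cRAF-ErT2 and given 250 nM 4OHT for 2 h, with clones a and b each precipitated for MED1 and MED24. The 0 h group was the same 2 clones, with the same cRAF-ErT2 cassette, left untreated. Both groups had been grown in serum and LIF with 2 µM Chir99021, an inhibitor of GSK3, and had spent the last 24 h in serum and LIF with 250 nM PD173074, an inhibitor of FGF receptors. cRAF-ErT2 is a RAF kinase fused to an oestrogen receptor domain that 4OHT releases, and RAF lies upstream of ERK. No library without the cassette or with vehicle was analysed here, so 4OHT, time in culture and ERK activation cannot be told apart. The peak names in the MED24 lists carry FLAG, a protein tag, and the name of another cofactor, EP300, while the sample labels say MED24. The labels were followed, so every MED24 result here rests on them.

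In a basement membrane, laminin trimers polymerise at the cell surface, collagen IV forms a second network, and nidogens and perlecan link the networks. Primitive endoderm and the parietal endoderm that descends from it secrete large amounts of these proteins, together with the collagen-binding protein SPARC. FGF signalling through ERK favours primitive endoderm over epiblast in the early mouse embryo. The cells measured here were embryonic stem cells, and markers of that state had Mediator regions throughout. All 6 genes on a list with Pou5f1 and Nanog had at least 1 peak in each of the 4 libraries, for each protein. Of all 21883 genes, 56.3% did so for each protein. Such peaks need not lie in the same region. Of 8 primitive endoderm marker genes, 5 had a peak in each of the 4 MED1 libraries and 4 in each of the 4 MED24 libraries. Sox7, a transcription factor of that lineage, had no region. Fibroblast markers had a peak in each of the 4 libraries at 1 of 5 genes for MED1 and 2 of 5 for MED24. Trophectoderm markers did at 4 of 5 and 5 of 5. Regions with peaks at 2 h only, in both clones, made up 17.0% of all MED1 and 15.8% of all MED24 regions assigned to a gene. They made up 13 of 36 MED1 and 13 of 37 MED24 regions at trophectoderm markers (36.1% and 35.1%), 4 of 10 and 2 of 11 at fibroblast markers, and 5 of 27 and 5 of 27 at primitive endoderm markers (18.5% each). At the embryonic stem cell markers, 16 of 107 MED1 and 17 of 100 MED24 regions had peaks at 0 h only, in both clones. That was 15% and 17%, against 6.53% and 8.30% of all regions. A further 12 and 13 regions there had peaks at 2 h only, in both clones (11.2% and 13%). Of these 6 genes, 3 had more MED1 regions at 0 h only and 2 had more at 2 h only. For MED24 the split was 4 and 2. Esrrb had 7 MED1 and 9 MED24 regions at 0 h only, against 2 and 4 at 2 h only. Zfp42 had 1 and 0, against 5 and 5. Regions at 0 h only numbered 0 and 1 at trophectoderm, 0 and 1 at fibroblast and 0 and 2 at primitive endoderm markers. What part other cell states had in the results below was not tested.

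The 2 h libraries held more peaks than the 0 h libraries, and every result on gained and lost regions stands beside that. MED1 had 43949 and 47305 peaks at 2 h (clones a and b), against 38668 and 37483 at 0 h. MED24 had 42445 and 48931 peaks at 2 h, against 41689 and 38398 at 0 h. Read numbers are not given, so the depth behind these peaks is unknown. A region that was not called can still hold signal below the caller's threshold.

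All 10 genes had at least 1 peak in each of the 8 libraries, as did 52.1% of all 21883 genes, and the genes as a set took a similar share of the peaks at both times. MED1 had 54 and 54 peaks at the 10 genes at 2 h, against 41 and 51 at 0 h, which was 54 ± 0 and 46 ± 7.07 (SD, n = 2 each). As a share of the library's peaks this was 0.123% and 0.114% at 2 h, against 0.106% and 0.136% at 0 h. MED24 had 51 and 62 peaks at 2 h, against 52 and 51 at 0 h, or 0.12% and 0.127% of peaks at 2 h, against 0.125% and 0.133% at 0 h. The difference in peak number was 8 for MED1 (exact two-sided permutation p = 0.333) and 5 for MED24 (exact permutation p = 1), and 0.333 is the smallest p that 2 libraries against 2 can give. Without the clone b library at 2 h the MED24 difference was -0.5. Without the clone a library at 0 h the MED1 difference was 3, and without the clone b library at 0 h it was 13.

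At individual regions the calls differed more. A region is called gained when both 2 h libraries have a peak in it and neither 0 h library does, lost in the reverse case, and retained when all 4 libraries have a peak. Gained regions made up 21 of the 86 MED1 regions, or 24.4% (95% exact binomial interval 15.8 to 34.9), where 17.0% of all MED1 regions assigned to a gene were gained. Lost regions made up 11 of 86, or 12.8% (6.56 to 21.7), where 6.53% of all were lost. For MED24 the gained regions were 21 of 88, or 23.9% (15.4 to 34.1), against 15.8% of all, and the lost regions were 12 of 88, or 13.6% (7.25 to 22.6), against 8.30% of all. These intervals cover counting error only, since neighbouring regions are not independent. The interval for lost MED1 regions starts just above the share over all regions, and the other intervals for gained and lost regions include that share. The members thus had higher shares than all regions in both directions, in both proteins, and fewer retained regions. For MED1, 15 of 86 were retained (17.4%, interval 10.1 to 27.1, against 31.9% of all). Other patterns made up 45.3%, against 44.6% of all. For MED24, 23 of 88 were retained (26.1%, interval 17.3 to 36.6, against 33.4% of all). Other patterns made up 36.4%, against 42.5% of all. The retained interval lay below the share of all for MED1 and included it for MED24, with the same limit to counting error.

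The shares depend on single libraries. With 1 library left out, a call rests on fewer libraries and the shares grow for all regions too. Without the clone a library at 0 h, 25.6% of MED1 member regions were lost, against 14.2% of all, and without the clone b libraries at 2 h or at 0 h the share lost was 20% and 19.7%, against 10.6% and 15% of all. Without the clone a library at 2 h, 35.6% of MED24 member regions were gained, against 28.1% of all.

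Counts by gene separated the 10 members. Sparc had 5 gained and 0 lost regions in each protein, most of the gained ones within 500 bases of another region of that protein. Col4a1 had 5 gained and 2 lost in MED1, and 4 gained and 2 lost in MED24. Lama5 went the other way, with 1 gained and 3 lost regions in each protein. For MED1, 5 genes had more gained than lost regions, 1 had more lost and 4 had equal numbers; for MED24 these were 6, 4 and 0 genes. A gene with any region had a median of 2 regions, and the members had 3 to 16 MED1 and 4 to 16 MED24 regions each.

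**Figure D1:**
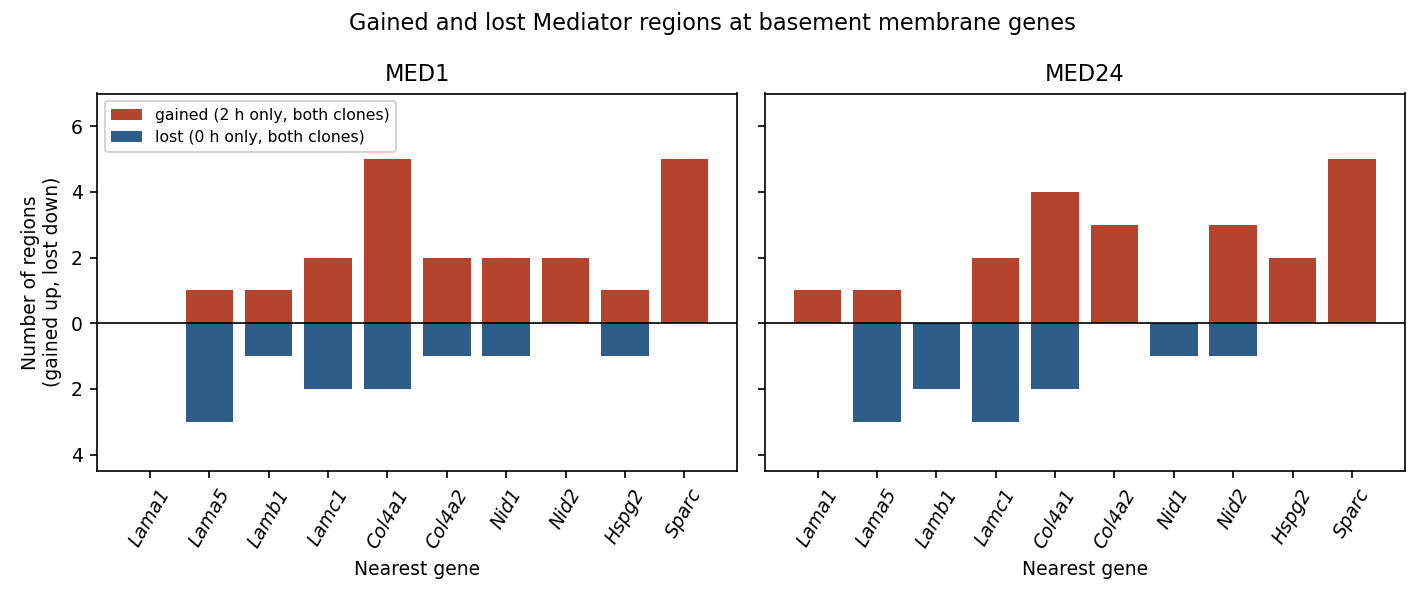
Number of gained regions (upward bars, with peaks at 2 h in both clones and at 0 h in none) and lost regions (downward bars, the reverse) nearest to each gene, for MED1 on the left and MED24 on the right. Sparc has 5 gained and 0 lost regions in both panels, and Lama5 has 1 gained and 3 lost. Most gained Sparc regions lie within 500 bases of another region of that protein.

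The promoter windows of the members differed in how Mediator lay over them. RefSeq start-site windows of 300 bases (250 before the start and 50 after it, GRCm38.p6) were matched for 7 of the 10 genes. Lamb1, Lama5 and Sparc are shown. By place in each library's whole list, Lamb1 ranked higher at 2 h and Lama5 did not. The Sparc window itself was called in few MED1 libraries. The windows are chr12:31265043-31265342 on the plus strand for Lamb1, chr2:180225810-180226109 on the minus strand for Lama5 and chr11:55420031-55420330 on the minus strand for Sparc. Capitals mark matches, on either strand, to 5 motifs searched: GGGCGG, the GC box; TGACTCA, known for AP-1 factors; CGGAAG, known for ETS factors; AGATAA, known for factors of the GATA family; and ACAATG, known for SOX factors.
Lamb1: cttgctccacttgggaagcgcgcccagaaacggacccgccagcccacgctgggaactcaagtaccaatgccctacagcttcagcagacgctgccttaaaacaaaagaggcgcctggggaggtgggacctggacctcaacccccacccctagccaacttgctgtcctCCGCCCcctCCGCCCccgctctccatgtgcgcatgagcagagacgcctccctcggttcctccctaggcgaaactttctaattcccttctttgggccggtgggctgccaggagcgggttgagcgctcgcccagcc
Lama5: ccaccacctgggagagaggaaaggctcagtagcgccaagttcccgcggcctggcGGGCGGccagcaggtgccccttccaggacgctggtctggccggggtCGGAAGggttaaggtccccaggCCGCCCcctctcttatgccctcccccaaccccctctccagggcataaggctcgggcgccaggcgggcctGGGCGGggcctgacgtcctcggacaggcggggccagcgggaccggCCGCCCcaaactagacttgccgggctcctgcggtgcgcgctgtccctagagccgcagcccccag
Sparc: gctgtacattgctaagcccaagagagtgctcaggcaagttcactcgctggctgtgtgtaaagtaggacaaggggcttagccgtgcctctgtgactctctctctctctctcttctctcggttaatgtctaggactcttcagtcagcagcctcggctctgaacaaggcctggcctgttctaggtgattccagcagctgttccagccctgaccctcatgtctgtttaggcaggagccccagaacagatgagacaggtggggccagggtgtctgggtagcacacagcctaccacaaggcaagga
The GC box was found in the windows of 6 of the 7 genes, once or more, with Hspg2 at 5 matches, Lama5 at 4 and Sparc at 0. It occurs in 46.2% of all 21262 windows. The ETS letters were found once, in Lama5, and occur in 21.1% of all windows, while the AP-1, GATA and SOX letters were in none of the 7 windows and occur in 4.66%, 9.65% and 11% of all. A match is a description of the letters only. The Sparc window had 55.3% G and C, against 63.7% to 74% in the other 6.

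A percentile gives the place of a peak in its own library's list, ordered by −log10 p for MED1 and by score for MED24, with 100 the highest. Over the Lamb1 window the MED1 peak stood at percentiles 89.6 and 93.5 at 2 h, against 60.3 and 42.5 at 0 h, and the MED24 peak at 92.9 and 89.9 at 2 h, against 20.9 and 52.7 at 0 h. Over the Lama5 window the MED1 peak stood at 54.8 and 46.1 at 2 h, against 54.9 and 73.4 at 0 h. Its MED24 peak stood at 33.9 and 52.8 at 2 h, against 58.8 and 73.5 at 0 h. The Lamb1 groups lay far apart in both proteins, with 2 h higher. At Lama5 both 2 h values lay below both 0 h values for MED24, and for MED1 54.8 at 2 h lay next to 54.9 at 0 h. These percentiles come from lists of different lengths. Among regions called in all 4 libraries, the Lama5 MED1 region stood at 36.9 and 23.4 at 2 h, against 28.7 and 54.8 at 0 h. There its direction differed between the clones. The Sparc window had a MED1 peak in the clone a library at 2 h only, at percentile 51.7. Its MED24 peak stood at 31.3 and 35.4 at 2 h, against no call and 19.7 at 0 h. The Sparc window covers only the edge of the regions there. The MED1 region chr11:55419469-55420081 was called in both 2 h libraries, at 51.7 and 55.4, and in neither 0 h library. The MED24 region chr11:55419612-55420170 was called in all 4 libraries, at 30.3 in clone a at 0 h. The Nid1 window was called in 1 library of 8, MED24 clone b at 2 h, at percentile 1.88.

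Among the laminin genes, Lamc1 held the gained region with the highest rank. Lamc1 encodes the gamma chain found in most laminin trimers, including the one of primitive endoderm. A region inside its span, chr1:153299853-153301130, was called for MED1 at percentiles 99.7 and 99.8 at 2 h and in neither 0 h library. Its deposited fold enrichment was 35.4 and 40 at 2 h. The MED24 region there, chr1:153300008-153301048, was gained as well, at percentiles 99.1 and 99.5. The gene table gives spans without exons, so exons and introns were not told apart.

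Lamc1 also had losses, most of them beyond its upper end: both lost MED1 regions and all but 1 of the 3 lost MED24 regions lay there. The MED1 region chr1:153347828-153348266, 15.042 kb outside the span, was called at percentiles 57 and 55.1 at 0 h and in neither 2 h library. The MED24 region chr1:153358436-153359114, 25.65 kb outside, was called at 89.6 and 91.3 at 0 h only. A MED24 region over the first of these places, chr1:153347781-153348166, was called at 79 and 50.7 at 0 h only. Farther out, 43.539 kb from the span and 47.635 kb from the next gene, Shcbp1l, lay the highest retained MED1 region of Lamc1. It stood at retained percentiles (taken among regions called in all 4 libraries) of 76.6 and 88.1 at 2 h, against 88.1 and 93.1 at 0 h, so it ranked high at both times. Inside the span, the retained MED24 region chr1:153287996-153288529 stood higher at 2 h, at 71.3 and 76.7, against 3.2 and 50.4 at 0 h. In total Lamc1 had 16 regions in each protein, of which 2 were gained and 2 lost for MED1, and 2 gained and 3 lost for MED24. Its MED1 peaks numbered 8 and 9 at 2 h, against 7 and 12 at 0 h. Its MED24 peaks numbered 5 and 11 at 2 h, against 10 and 10 at 0 h, so the libraries of the 2 clones stood apart at 2 h.

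Lamb1 encodes the beta chain that pairs with gamma chain Lamc1 in the same trimers, and its gene end had the largest upward shift among retained MED1 regions. The region at the Lamb1 end, chr12:31264640-31265882, stood at retained percentiles 84.1 and 89.3 at 2 h, against 34.9 and 19.1 at 0 h, for MED1. Its deposited MED1 fold enrichment was 12 and 14.2 at 2 h, against 6.5 and 5.39 at 0 h. For MED24 the region chr12:31264532-31265862 stood at 89.5 and 83 at 2 h, against 6.91 and 34.1 at 0 h. Both 2 h libraries lay above both 0 h libraries in each protein.

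A second Lamb1 region stood lower at 2 h. It lay 39.131 kb outside the span, at chr12:31225201-31226015, with the next protein-coding gene, Dld, 105.547 kb away. Its MED1 retained percentiles were 11.8 and 0.858 at 2 h, against 63 and 67.7 at 0 h. Its MED24 retained percentiles, over chr12:31225072-31226052, were 13.3 and 14.6 at 2 h, against 76.3 and 87.2 at 0 h. Lamb1 had 1 gained, 1 lost and 2 retained of 8 MED1 regions, and 0 gained, 2 lost and 2 retained of 9 MED24 regions. Its peaks numbered 3 and 4 at 2 h, against 5 and 5 at 0 h, for MED1, and 2 and 6 at 2 h, against 6 and 8 at 0 h, for MED24. The start-site end of Lamb1 and this distant region thus differed in opposite directions in both clones and both proteins.

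Lama5 encodes an alpha chain of laminins found in many epithelia, and it was the laminin gene with the widest gap toward fewer peaks at 2 h for MED1. Its peaks numbered 5 and 4 at 2 h, against 8 and 9 at 0 h, for MED1, and 5 and 4 at 2 h, against 9 and 8 at 0 h, for MED24. The MED24 region chr2:180236174-180238289, 10.27 kb outside the span, was called at percentiles 95 and 94.8 at 0 h and in neither 2 h library. The MED1 region there, chr2:180236001-180236847, was also lost, at 44.9 and 61.9 at 0 h, and lay 196 bases from the next MED1 region. The MED24 region chr2:180219388-180220791, inside the span, was called at 92 and 84.4 at 0 h only. A retained region 1.308 kb outside, chr2:180227212-180228037, stood lower at 2 h, at MED1 retained percentiles 35.1 and 45.6, against 70.1 and 86.2 at 0 h. In MED24 that region stood at 26.4 and 56.3 at 2 h, against 89.5 and 91.6 at 0 h.

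Lama1 encodes the alpha chain of the laminin that primitive and parietal endoderm deposit, and it had few regions and few differences. It had 3 MED1 regions with 0 gained and 0 lost, and 5 MED24 regions with 1 gained and 0 lost. Its peaks numbered 3 and 2 at 2 h, against 2 and 3 at 0 h, for MED1, and 3 and 3 at 2 h, against 3 and 4 at 0 h, for MED24. Its highest retained MED1 region, chr17:67693929-67694507, lay 2.62 kb outside and stood at 65.9 and 55.2 at 2 h, against 52.5 and 63.6 at 0 h, with the groups overlapping. The MED24 region at its end, chr17:67696875-67697847, stood at retained percentiles 41 and 66.1 at 2 h, against 21.2 and 39.9 at 0 h. Both 2 h values lay above both 0 h values, with 41 at 2 h close to 39.9 at 0 h.

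**Figure D2:**
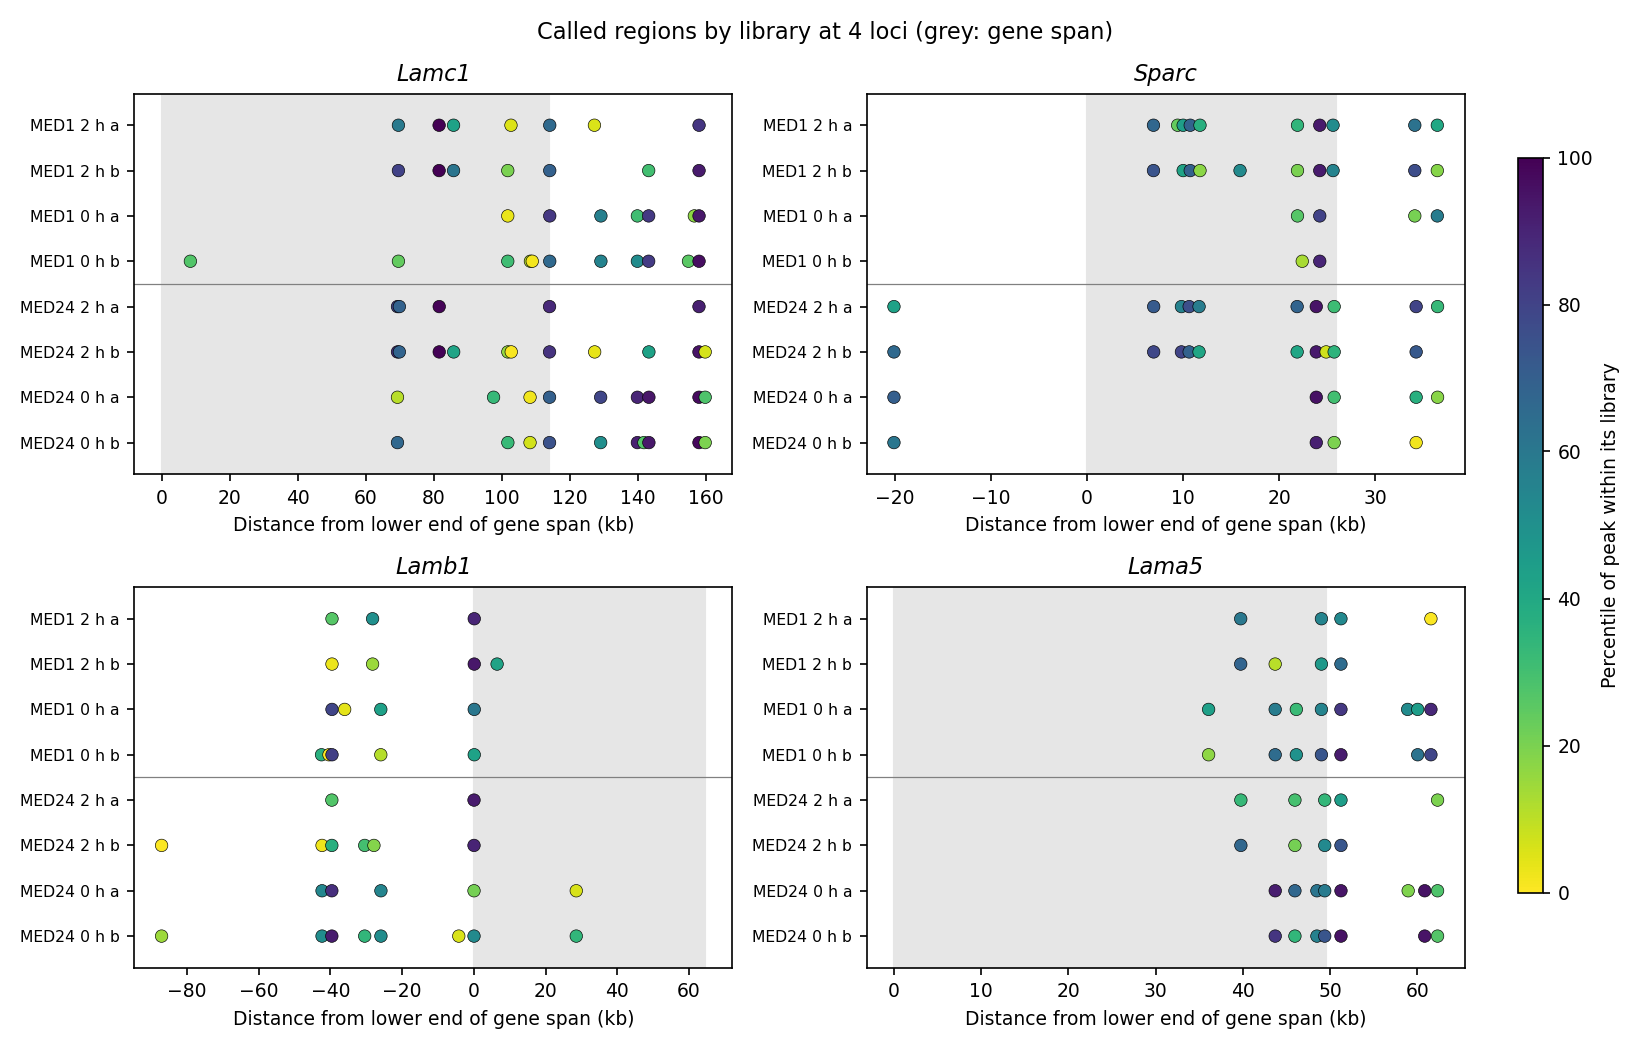
Called regions in each of the 8 libraries (rows, 2 h above 0 h within each protein) at Lamc1, Sparc, Lamb1 and Lama5, by distance from the lower end of the gene span in kb (grey, the span). Each point is a region called in that library, coloured by the percentile of its peak in the library; the gained Lamc1 region at percentiles 99.7 and 99.8 for MED1 appears in the 2 h rows only.

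Col4a1 and Col4a2 encode the 2 chains of the most widespread collagen IV. They lie head to head and share a promoter, and their annotated spans overlap there. The highest gained region of each gene lay inside its span. In Col4a1, chr8:11259784-11260296 was called for MED1 at percentiles 97.4 and 97.4 at 2 h, with fold enrichments of 21.7 and 22.5, and for MED24 at 92.8 and 95.4 at 2 h. In Col4a2, chr8:11372089-11372492 was called for MED1 at 89.4 and 86.8 at 2 h and for MED24 at 62.5 and 86.3 at 2 h. Neither region was called in a 0 h library of either protein. A further gained region lay 9.948 kb outside Col4a1, at chr8:11187589-11188475, with MED1 percentiles 86.6 and 87.5 and MED24 percentiles 79.8 and 85.8 at 2 h. The highest lost MED1 region of the 10 genes was also in Col4a1, at chr8:11266193-11266536, with percentiles 62.7 and 61.7 at 0 h. Col4a1 had 7 and 8 MED1 peaks at 2 h, against 5 and 5 at 0 h, and 7 and 6 MED24 peaks at 2 h, against 5 and 7 at 0 h.

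Col4a2 had 2 gained and 1 lost of 5 MED1 regions, and 3 gained and 0 lost of 9 MED24 regions. Peak numbers at Col4a2 were 2 and 3 at 2 h, against 1 and 2 at 0 h, for MED1, and 6 and 8 at 2 h, against 2 and 1 at 0 h, for MED24. The groups did not overlap for MED24 and touched for MED1. Some of the MED24 peaks ranked low. The gained region chr8:11430696-11431013 stood at percentiles 11.1 and 18.7 at 2 h, while the other gained regions stood at 61.1 and 61, and at 62.5 and 86.3. Peaks in regions called in 1 MED24 library only stood at 2.11 (clone a) and at 6.31, 32.6 and 48.4 (clone b) at 2 h. A region inside Col4a2 went the other way. It was lost for MED1 (chr8:11382082-11382462, percentiles 47.1 and 62.5 at 0 h), and for MED24 it was retained and stood lower, at retained percentiles 4.78 and 16.4 at 2 h, against 53.8 and 66.8 at 0 h. The shared end, counted once and with Col4a1, was retained in both proteins. Its MED24 retained percentiles were 47.3 and 27.8 at 2 h, against 3.67 and 9.73 at 0 h, while its MED1 values of 39.3 and 13.7 at 2 h enclosed the 36.5 and 24.1 of 0 h.

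Nid1 and Nid2 encode the nidogens, which bind the laminin gamma chain and collagen IV. At Nid1 the region with the largest shift stood lower at 2 h. For MED1 it was chr13:13450701-13451686, inside the span, at retained percentiles 29.1 and 43.9 at 2 h, against 88.6 and 81.7 at 0 h. For MED24 it stood at 23.4 and 29 at 2 h, against 87.7 and 93.1 at 0 h. Another Nid1 region near it was lost in both proteins, at MED1 percentiles 16.6 and 72.7 and MED24 percentiles 49.1 and 71.3 at 0 h. In all, Nid1 had 2 gained and 1 lost of 5 MED1 regions, and 0 gained and 1 lost of 4 MED24 regions. Its peak numbers in the 2 proteins differed in opposite directions. They were 4 and 3 at 2 h, against 2 and 2 at 0 h, for MED1, and 1 and 2 at 2 h, against 2 and 3 at 0 h, for MED24. Low-ranked peaks entered these counts. The gained MED1 regions stood at percentiles 8.86 and 15.6, and at 20.4 and 43.7, at 2 h, and a further clone a peak stood at 7.11. For MED24, clone b had a peak at 1.88 at 2 h and 1 at 0.297 at 0 h. The lost and the retained region had the same call in both proteins. Nid2 had 2 gained and 0 lost regions of 5 for MED1, and 3 gained and 1 lost of 7 for MED24. The region at its end stood lower at 2 h for MED1, at 57.5 and 56.7, against 71.1 and 81.3 at 0 h, and for MED24, at 69.7 and 69.3, against 85.8 and 90.3 at 0 h. Its peaks numbered 5 and 4 at 2 h, against 2 and 5 at 0 h, for MED1, and 5 and 5 at 2 h, against 4 and 2 at 0 h, for MED24.

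Hspg2 encodes perlecan, the heparan sulfate proteoglycan of basement membranes, and for MED24 regions close together near its lower end differed in opposite directions. The region at the end itself, chr4:137468247-137469213, stood higher for MED24, at retained percentiles 41 and 44.2 at 2 h, against 15.1 and 6.22 at 0 h. For MED1 the region there, chr4:137468255-137468688, stood at 25.4 and 31.4 at 2 h, against 36.5 and 3.87 at 0 h, so the groups overlapped. The next region inside the span stood lower in both proteins. For MED1 it was chr4:137469792-137470999, at 27.1 and 39.7 at 2 h, against 81.6 and 85.3 at 0 h, and for MED24 it stood at 55.5 and 17.5 at 2 h, against 86.9 and 92.3 at 0 h. The groups did not overlap in either protein for this region, nor for MED24 at the end. Deeper in the gene, the MED24 region chr4:137495041-137495582 stood higher, at 63.6 and 53.8 at 2 h, against 29.9 and 14.6 at 0 h. Hspg2 had 1 gained and 1 lost of 12 MED1 regions, and 2 gained and 0 lost of 8 MED24 regions. Its peaks numbered 6 and 7 at 2 h, against 5 and 6 at 0 h, for MED1, and 7 and 7 at 2 h, against 6 and 4 at 0 h, for MED24.

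Sparc encodes a collagen-binding glycoprotein abundant in parietal endoderm, and it had the widest gap in MED1 peak number between the times. MED1 had 11 and 10 peaks at Sparc at 2 h, against 4 and 2 at 0 h, and MED24 had 10 and 10 at 2 h, against 5 and 4 at 0 h. The groups did not overlap in either protein. Of its gained regions, 4 were gained in both proteins, and they lay within the gene between positions 55400877 and 55406197 of chromosome 11. The first of these, chr11:55400877-55401299, stood at MED1 percentiles 67.1 and 73.9 at 2 h and at MED24 percentiles 71.5 and 78.6 at 2 h. The others lay 164 to 454 bases from the next MED1 region and 208 to 294 bases from the next MED24 region. Counts at Sparc thus depend in part on how neighbouring peaks were divided. A retained MED24 region 7.923 kb outside the span, chr11:55428003-55428840, stood at retained percentiles 70.6 and 54.9 at 2 h, against 15.8 and 0.843 at 0 h. The retained MED1 region at the Sparc end, chr11:55417394-55419390, stood at 89.7 and 88.1 at 2 h, against 64.5 and 81.5 at 0 h. The MED24 region over it ranked high at both times, at 92.2 and 88.4 at 2 h, against 91.8 and 86 at 0 h.

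**Figure D3:**
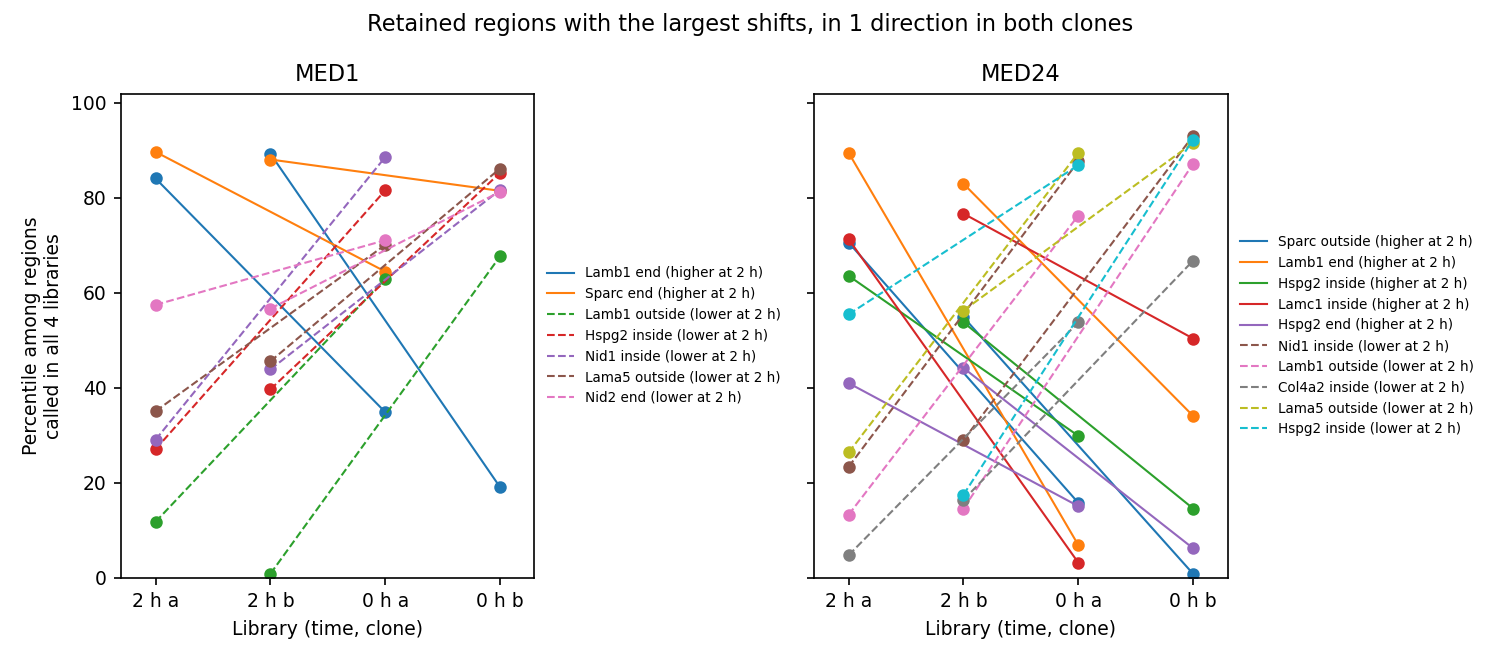
Percentile among regions called in all 4 libraries, for the retained regions with the largest shifts of 1 direction in both clones (lines join the libraries of a clone; solid, higher at 2 h; dashed, lower at 2 h), for MED1 and MED24. The start-site end of Lamb1 stands at 84.1 and 89.3 at 2 h, against 34.9 and 19.1 at 0 h, for MED1. The Nid1 region inside the gene stands at 29.1 and 43.9 at 2 h, against 88.6 and 81.7 at 0 h, for MED1.

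Over all 10 genes, place along the gene separated the calls. Regions within 1 kb of a span end were 12 of 86 for MED1 and 12 of 88 for MED24, and 8 of 12 were retained in each protein (62.7% and 60.6% of all such regions were). Ends were gained in 2 of 12 for MED1 (5.15% of all) and in 1 of 12 for MED24 (7.63%), and lost in 0 of 12 for MED1 (2.60%) and in 1 of 12 for MED24 (2.33%). Regions inside a gene span were 49 of 86 for MED1, or 57%, where 40.2% of all regions were inside. Regions inside the genes held most gained calls: 16 of 49 for MED1 (32.7%, against 21.7% of all inside regions) and 18 of 49 for MED24 (36.7%, against 19.1%). Inside regions were also lost, in 7 of 49 for MED1 (14.3%, against 7.46%) and in 6 of 49 for MED24 (12.2%, against 9.87%). They were retained in 3 of 49 for MED1 (6.12%, against 20.9%) and in 9 of 49 for MED24 (18.4%, against 23.7%). Regions outside were gained in 3 of 25 for MED1 (12%, against 20.1%) and in 2 of 27 for MED24 (7.41%, against 17.6%). Outside regions were lost in 4 of 25 for MED1 (16%, against 8.26%) and in 5 of 27 for MED24 (18.5%, against 10.6%). They were retained in 4 of 25 for MED1 (16%, against 22.5%) and in 6 of 27 for MED24 (22.2%, against 26.0%). The members therefore had more gained calls inside and fewer outside than all regions of those places, as a description with no test.

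Shifts of the retained regions were also set out by place. The shift is the retained percentile at 2 h minus that at 0 h, averaged over the clones. At gene ends its median was 23.1 over 8 MED24 member regions, against 3.44 over all retained ends, and 6 of the 8 had both 2 h values above both 0 h values, where 33.0% of all retained ends did. Inside the genes the MED24 median was -13.6 over 9 regions, against -2.15 over all, with 2 of 9 above in that sense (22.2%, against 29.8%). This inside median was -30.5 in clone a and 2.35 in clone b, so its direction did not hold in both clones. Outside the genes it was -9.16 over 6 regions, against -3.58 over all. For MED1 the medians were -5.29 over 8 ends, -48.6 over 3 inside regions and -23 over 4 outside regions, against -1.28, -1.19 and -1.7 over all. Of the MED1 ends, 2 of 8, those of Lamb1 and Sparc, had both 2 h values above both 0 h values (20.2% of all retained ends did). The median at gene ends was 22.8 in clone a and 16.1 in clone b for MED24, upward in both. For MED1 it was -4.14 in clone a and 3.52 in clone b, with no common direction. The difference between the proteins was not tested. Retained regions over a start-site window had a MED1 median of 2.21 over 4 regions, against -1.22 over all such regions. It was 5.49 in clone a and 8.57 in clone b, with single regions from -11.6 to 59.7. The MED24 median over such windows was 30.8 over 5 regions, against 3.59 over all.

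Over all places the median shift was -8.27 for the 15 retained MED1 regions, with single regions from -59 to 59.7, against -1.34 over all retained regions. It was -5.69 for the 23 MED24 regions, from -67.9 to 65.7, against 0.233 over all. Split by clone, the MED24 medians were -2.96 (a) and 2.92 (b), so they shared no direction. The MED1 medians were -11.6 (a) and -10.4 (b), both downward. Both 2 h values lay below both 0 h values in 6 of 15 MED1 regions (40%, against 29.5% of all) and above them in 2 (13.3%, against 24.7%). For MED24 they lay below in 10 of 23 (43.5%, against 30.3%) and above in 9 (39.1%, against 31.1%). The median rested on single libraries: for MED1 it was -15.6 without clone a at 2 h, -13.1 without clone b at 2 h and -4.07 without clone a at 0 h, and for MED24 it was 2.83 without clone a at 0 h and -3.72 without clone b at 2 h.

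**Figure D4:**
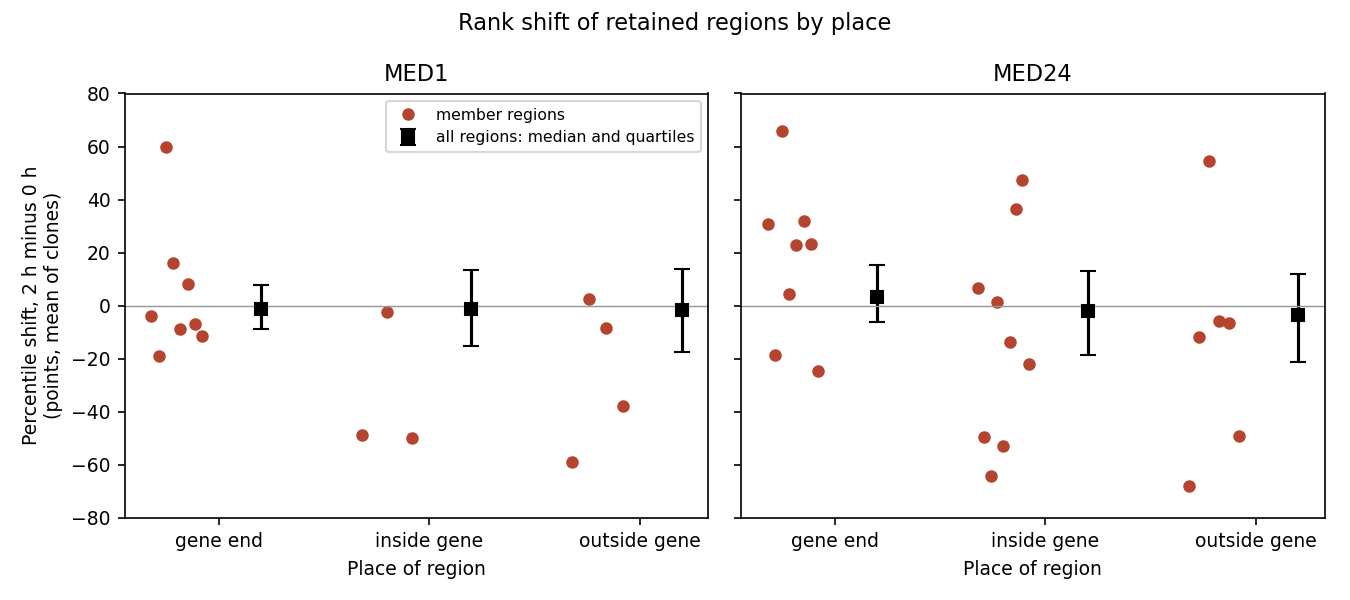
Shift of retained regions (2 h minus 0 h, percentile points, mean of the clones) by place relative to the gene: each point is a member region, and squares with bars give the median and quartiles of all retained regions. In MED24 the points at gene ends have a median of 23.1, against 3.44 for all regions, and those inside the genes a median of -13.6, against -2.15.

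The 2 proteins gave the same calls at many of the same places. Of the 21 gained MED1 regions, 15 (71.4%) overlapped a gained MED24 region, as did 61.8% of all gained MED1 regions, and 15 of the 21 gained MED24 regions (71.4%, against 66.5% of all) overlapped a gained MED1 region. Of the lost regions, 6 of 11 for MED1 (54.5%, against 43.2% of all) and 6 of 12 for MED24 (50%, against 33.8% of all) overlapped a lost region of the other protein. No member region was gained in one protein and lost in the other, a count of 0, and over all regions 5 of the 10182 gained MED1 regions overlapped a lost MED24 region. Of the 15 retained MED1 regions, 14 (93.3%, against 84.7% of all) overlapped a retained MED24 region. Such overlap was thus common over all regions too. Some calls rest on how a broad peak was divided: 5 of the 21 gained regions of each protein, and 2 of 11 MED1 and 3 of 12 MED24 lost regions, lay within 500 bases of another region of that protein. The MED1 region chr11:55419469-55420081 at the Sparc end, gained for MED1 and retained for MED24, lay 78 bases from a retained MED1 region.

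With lists of equal length, more member regions stood among the highest peaks at 0 h alone than at 2 h alone. When only the 10000 highest peaks of each library were kept, the members had 19 MED1 regions, of which 5 (26.3%) were gained and 8 (42.1%) were lost, against 19.5% and 14.9% of all. For MED24 there were 24 regions, of which 5 (20.8%) were gained and 9 (37.5%) were lost, against 20.6% and 17.8% of all. The lost regions lay at 7 genes for MED1 and 6 genes for MED24. The difference in peak number also turned round, to -3.5 for MED1 and -4 for MED24. A region counted as lost here had a peak among the 10000 highest in both 0 h libraries and in neither 2 h library, and gained is the reverse. It can still have a lower peak at the other time in the full lists. The regions counted as lost here at Hspg2, Lamb1 and Nid1 were retained over the full lists in both proteins. At Lama5, chr2:180219388-180220791 was lost for MED24 in both settings. Over the full lists more member regions were called at 2 h alone than at 0 h alone.

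Other genes of the basement membrane were set beside the members, from a list of 44 genes. For MED1, 36 of them had 162 regions, of which 29 (17.9%) were gained and 9 (5.56%) lost, with 14 genes having more gained and 4 more lost. For MED24 there were 175 regions, of which 34 (19.4%) were gained and 14 (8%) lost, with 14 genes having more gained and 5 more lost. These shares are close to the 17.0% and 6.53% of all MED1 regions and the 15.8% and 8.30% of all MED24 regions. By role, the other laminin chains had 5 gained and 1 lost of 18 MED1 regions, and 8 gained and 1 lost of 22 MED24 regions. The other collagen IV chain genes had 0 MED1 regions and 1 MED24 region. Among further basement membrane proteins, Col18a1, which encodes the collagen that gives rise to endostatin, had 8 gained and 0 lost of 24 MED1 regions, and 6 gained and 1 lost of 29 MED24 regions. Agrn, the agrin gene, had 0 gained and 3 lost of 8 MED1 regions, and 1 gained and 0 lost of 5 MED24 regions. Receptors had 10 gained and 3 lost of 54 MED1 regions, and 9 gained and 7 lost of 59 MED24 regions. Among them Itga6, a laminin-binding integrin chain gene, had 3 gained and 0 lost of 15 MED1 regions, and 3 gained and 2 lost of 18 MED24 regions.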

How the data were processed

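The deposited values are peak lists, 1 for each of the 8 ChIP libraries; the 4 inputs are not analysed here. The submitters' processing notes name Bowtie2, MACS2, bedtools and the mm10 build; which versions and settings applied, and how inputs entered, is not stated there. The MED1 lists, deposited by the authors, give for each peak a score, a fold enrichment (a ratio), a −log10 p-value and a −log10 q-value. The MED24 lists deposited by the authors give a position and a score with no stated scale. These are the authors' own values, serving here only for ranks and filters inside each list. The lowest score was 20 in each list, and depth is unknown.

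Peaks were merged within a protein at an overlap of at least 1 bp, and regions were assigned to the nearest RefSeq protein-coding span (GRCm38.p6) within 100 kb. Groups and clones came from the sample titles. A region over both collagen IV genes went to Col4a1, the shorter span. Exact two-sided permutation tests compared numbers per library, and intervals are Clopper-Pearson at 95% (scipy 1.17.1, numpy 2.4.6, pandas 2.3.3). No test was made per region, and the scripts were tested on simulated data. Named regions are the up to 5 gained, lost, higher and lower retained regions of each protein with the largest percentiles or shifts, alike in both clones; others were chosen after their values were seen. Alternatives were a score of at least 100, the 10000 highest peaks per library, assignment within 20 kb, ranking MED1 by fold, merging at an overlap of 50% of the shorter peak, counting a tied region for any tied member, means for medians, leaving out each library, and the replicate block by clone. The members and gene lists were chosen with earlier results of these data known. The clone letter in the titles pairs the 2 times. Across retained regions, deviations of libraries of the same clone had a correlation of -0.00505 for MED1 and -0.00686 for MED24. The libraries come from 2 clones of 1 line, with 1 library per clone, time and protein. The spread behind any p is therefore that among these libraries, in which clone and library cannot be told apart. The farthest member region lay 61.569 kb from its gene for MED1 and 86.926 kb for MED24, and 0 further regions lay beyond 100 kb.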

Additional observations from a re-analysis of the deposited data

Results flagged for a closer look

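Nid1 was flagged because its peak number differed between the times in opposite directions for the 2 proteins. It had 4 and 3 MED1 peaks at 2 h, against 2 and 2 at 0 h, a difference in means of 1.5. It had 1 and 2 MED24 peaks at 2 h, against 2 and 3 at 0 h, a difference of -1. The MED1 difference minus the MED24 difference was 2.5, and this was not tested. Low-ranked peaks entered these counts. The gained MED1 regions stood at percentiles 8.86 and 15.6, and at 20.4 and 43.7, at 2 h. Clone b MED24 peaks stood at 1.88 at 2 h and 0.297 at 0 h. The lost and the retained Nid1 region had the same call in both proteins.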

How the results depend on the processing

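Of the alternative values, 56 kept the direction of a peak difference or moved a share or shift by less than its interval or the spread between clones, 17 moved further with the same sign and 6 changed sign. Keeping the 10000 highest peaks per library turned the difference in peaks at the members (2 h minus 0 h) to -3.5 for MED1 and -4 for MED24. It raised the share lost, here meaning among the 10000 highest at 0 h only, to 42.1% and 37.5%. Median shifts of 8.56 over 2 MED1 regions and -22.4 over 4 MED24 regions were left. With a score of at least 100 the median shift was -11.3 for MED1 and -9.9 for MED24, and with assignment within 20 kb it was -6.78 and 1.4. For MED1 the mean shift was -11.3, and the median with ranks by fold was -3.87. With 1 library left out, the MED1 share lost ranged from 16.2% to 25.6%, the MED1 shift from -15.6 to -4.07, the MED24 share gained from 25.3% to 35.6%, the MED24 shift from -5.04 to 2.83 and the MED24 peak difference from -0.5 to 10.5. Within clones (the replicate block, paired by the clone letter) the MED1 share gained was 34.9% and lost 25.6%, against 28.6% and 17.3% of all regions, and the MED1 shift was -10.7; a region then needs 1 clone rather than 2. The block ended no call, since none passed a test, and the peak differences stayed at 8 for MED1 (exact p = 0.5) and 5 for MED24 (exact p = 1). The cause of the other moves was not tested. With 2 clones per group no p can fall under 0.333, and without read numbers an uncalled region cannot be told from one of low depth.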
